A study of Homo sapiens with 30 samples.

Results

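Lung metastases of subclone 2 of MDA-MB-231, a human breast cancer cell line, were compared with primary tumours of the same subclone. The members were chosen by organ and subclone label: the 3 subclone 2 lung metastasis samples against the 3 subclone 2 primary tumour samples, paired by mouse number, which makes 6 of the 24 samples of the series (30 libraries, with 3 libraries summed for each subclone 13 sample of mouse 1). The lung group was LeGO-barcoded MDA-MB-231 cells of subclone 2 sorted from lung metastases, and its counterpart was the same barcoded subclone sorted from primary tumours, both taken from NOD-SCID-IL2Rγc−/− (NSG) mice, for which the labels give no treatment. MDA-MB-231 is a triple-negative, mesenchymal-like line; LeGO vectors are lentiviral vectors that leave a heritable mark in each transduced cell, so subclone 2 is 1 marked line and not a panel of independent lines. NSG mice lack T, B and natural killer cells but keep myeloid cells, so these are human cells in a host without adaptive immunity, and the ages of the mice and the site of transplantation were not given in the sources used here. Liver metastases of subclone 2, and lung metastases and primary tumours of subclone 13, served for further comparisons.

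A cell that leaves a primary tumour and grows in the lung meets an organ with other growth factors, stiffness and oxygen supply. Cells deposit matrix proteins such as collagens, fibronectin and laminins, and read the matrix through integrins. They respond to cytokines, BMP ligands and steroid hormones through transcription factors whose targets include the ID proteins, SOCS3 and the immediate early genes, which are transcribed within minutes of a stimulus and need no new protein synthesis. ID1 and TNC have been described before in lung colonisation by MDA-MB-231 derivatives.

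Lung samples of mice 1, 2 and 3 held 13.2, 50.9 and 11.8 M counts (1 M is 1e+06) and tumour samples 15.8, 13.7 and 44.6 M. Both samples of mouse 1 stood apart on the first principal component of the 6 samples (49.3% of the variance; scores of -84.4 in lung and -145 in tumour, against 31.9 to 72.1 in the other 4), while the second (23.4%) put the 3 lung samples (-114 to -3.09) below the 3 tumour samples (19.1 to 76.1). Mouse 1, 2 and 3 of subclone 2 were sequenced in runs 1, 2 and 3, per the deposited sample sheet, so mouse and run cannot be told apart. VIM, the mesenchymal filament protein, reached 3498 to 5437 CPM (counts per 1e+06 counts) in lung and 2829 to 5383 in tumour. ESR1 and PGR were at 1.79 or below, but EPCAM, also expected low, had 20.7 to 48.0 in lung and 13.7 to 23.4 in tumour. In all 6 samples SFTPC of lung epithelium, FGB of hepatocytes, HBA1 of red blood cells, FABP4 of fat and DPT of fibroblasts were at 0. Other members of such lists were present. The hepatocyte markers summed to 30.8 to 98.2 in lung and 62.2 to 76.6 in tumour, with SERPINA1 the largest. The endothelial markers summed to 49.5 to 146 in lung and 79.5 to 121 in tumour, with ESAM the largest. The 12 lung epithelium markers summed to 29.9 to 32.9 in lung and 24.3 to 28.8 in tumour, nearly all from ABCA3 and AGER; the 10 leukocyte markers summed to 4.76 to 8.81 in lung and 3.85 to 13.1 in tumour. The 50 most abundant genes took 17.9 to 19.8% of counts in lung and 13.5 to 14.9% in tumour.

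In lung metastases a group of signalling genes was higher than in the tumours and a group of extracellular matrix genes was lower. ID1, an inhibitor of basic helix-loop-helix transcription factors, and SOCS3, a feedback inhibitor of cytokine receptors, had fitted levels 12.6 and 7.8 times those of the tumours, while COL1A2, a chain of type I collagen, was 7.98-fold lower. Of 17418 genes tested, 532 passed (3.05%), of which 214 were higher (1.23%) and 318 lower (1.83%) in lung, by the edgeR quasi-likelihood test with mouse as a term and a Benjamini-Hochberg adjusted p under 0.05. Of the 532, 530 had the same direction in all 3 mice, and in 463 the 3 lung samples did not overlap the 3 tumour samples; over all genes tested, 7.33% lay wholly higher and 7.49% wholly lower. The median log2 fold change of all genes was 0.05. Replicates were separate mice. Because the mouse term takes up the differences between animals, the p-values rest on the spread that remains after it. That spread was estimated over all 18 samples of the fit, with 10 residual degrees of freedom.

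The count depended on the mouse term and on gene length. Without the mouse term 76 genes passed (0.436%; 32 higher, 0.184%, and 44 lower, 0.253%), and all 76 were among the 532. With an offset for exonic length, 334 passed (1.92%), 195 higher (1.12%) and 139 lower (0.798%), so that the majority changed from lower to higher; 287 genes were called in both fits, all in the same direction. Leaving out 1 mouse gave 258 genes without mouse 1, 142 without mouse 2 and 107 without mouse 3. Leaving out 1 sample gave 252, 196 and 314 genes without the lung sample of mouse 1, 2 or 3, and 257, 336 and 256 without the tumour sample of mouse 1, 2 or 3.

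**Figure D1:**
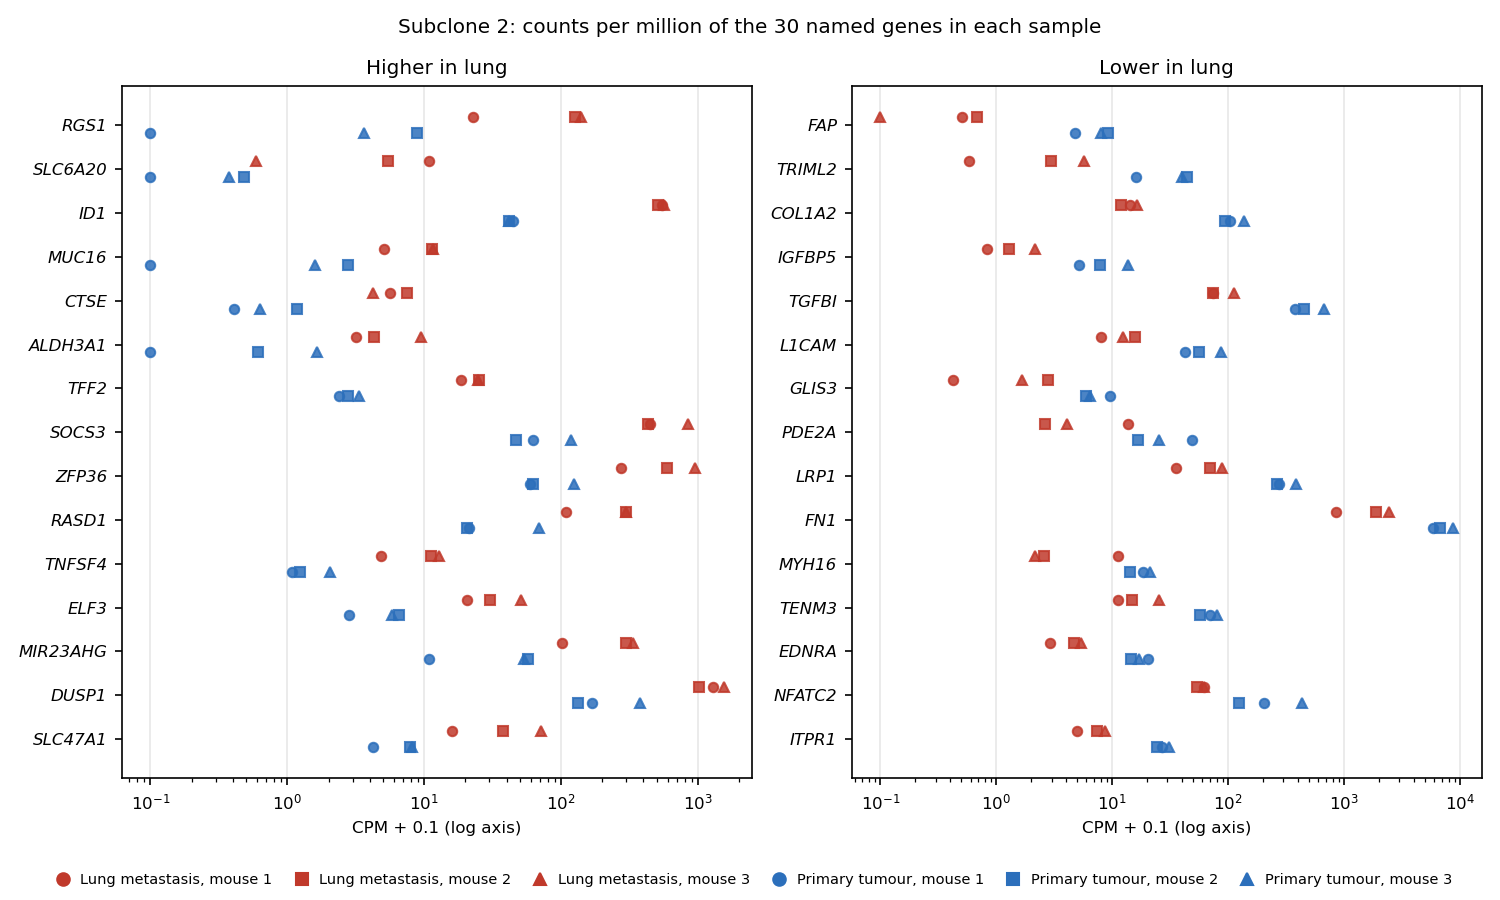
CPM (plus 0.1, log axis) of the 15 genes with the largest increase and the 15 with the largest decrease in lung, with 1 symbol per mouse, lung in red and primary tumour in blue. In each gene all 3 lung samples lie on one side of all 3 tumour samples; that separation was a condition for being shown.

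ID1 (ENSG00000125968, GRCh38 chr20:31605283-31606515) gave the most uniform rise. It had 546, 509 and 561 CPM in the lung samples of mice 1, 2 and 3, against 44.6, 41.7 and 41.9 CPM in their tumour samples. The CPM values keep this mouse order below and are scaled by TMM, except where scaling by total counts is stated. The groups were far apart and each group's samples lay within a narrow range. The log2 fold change was 3.66 ± 0.29 (SE) with an adjusted p of 1.06e-06, and 4.68e-05 without the mouse term. ID3, a relative with the same inhibitory fold, had 34.9, 53.8 and 61.9 CPM in lung and 11.3, 11.5 and 16.2 CPM in tumour, with no overlap (1.93 ± 0.26; adjusted p = 0.000344). ID2, another relative, was scarcer at 5.08, 8.38 and 9.42 CPM in lung and 0.681, 2.1 and 4.12 CPM in tumour; it passed (1.93 ± 0.44, 0.0199) and lost its call without the mouse term (0.38). ID genes are direct targets of BMP signalling. In the list of ID proteins and BMP ligands, receptors, antagonists and targets, 3 of 23 tested members rose, these 3, and 1 fell, BMP1, which despite its name is the protease that trims procollagens (84.2, 91.7 and 89 CPM in lung, 127, 170.3 and 236 CPM in tumour; -0.97 ± 0.20, 0.0116, and 0.0703 with length offsets). The list median was 0.00.

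SOCS3 (ENSG00000184557, chr17:78356778-78360077) had the smallest adjusted p of all genes. It had 449, 434 and 840.2 CPM in lung and 61.9, 47.1 and 119 CPM in tumour, and the lowest lung value was 3.65 times the highest tumour value. The log2 fold change was 2.96 ± 0.22, with an adjusted p of 4.55e-07, and 0.00857 without the mouse term. SOCS3 is induced by STAT3 and shuts down receptors of the IL-6 family. In the list of IL-6 family cytokines, receptors and STAT3 targets, 4 of 23 members rose and 1 fell, with a median of 0.32. The rises numbered 1 without the mouse term, 1 without the lung or the tumour sample of mouse 2 or the tumour sample of mouse 3, 2 without the tumour sample of mouse 1, 2 without any one mouse, and 3 without the lung sample of mouse 1 or 3. PIM3, a survival kinase, had 270.1, 346 and 305 CPM in lung and 154, 107 and 143 CPM in tumour (1.22 ± 0.25, 0.0117). The transcription factors CEBPB and CEBPD also rose (1.09 ± 0.27 and 1.35 ± 0.34; adjusted p = 0.0293 and 0.0337), and JAK1, a receptor-bound kinase, fell (-0.79 ± 0.18, 0.0214). Besides SOCS3, PIM3 was the member whose call stood with length offsets; CEBPB, CEBPD and JAK1 had adjusted p of 0.0661, 0.0678 and 0.0805.

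Of 31 immediate early genes, 13 rose, 0 fell and 18 did not pass; the median log2 fold change was 0.93, against 0.05 for all genes, and 28 had a positive value. The genes that rose were FOS, FOSL2, JUN, JUNB and JUND, which form the AP-1 transcription factors, EGR1, IER2, KLF2 and KLF10, further transcriptional regulators, TRIB1, a pseudokinase, ZFP36, which destabilises AU-rich mRNAs, and DUSP1 and DUSP2, phosphatases of MAP kinases. With length offsets 11 rose, and without the mouse term 4. The count was 10 without mouse 1, 4 without mouse 2 and 10 without mouse 3, and 7 to 16 without any one sample. The list medians in mice 1, 2 and 3 were 1.09, 1.48 and 0.32, so mouse 3 showed the smallest shift.

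DUSP1 had 1289.7, 1019.8 and 1539 CPM in lung and 169, 132 and 377 CPM in tumour, with a log2 fold change of 2.58 ± 0.28 (adjusted p = 7.24e-05). ZFP36 had 272, 590.5 and 950.1 CPM in lung and 59.2, 62.2 and 125 CPM in tumour (2.89 ± 0.35, 0.000207). Both separated the groups fully and kept their calls without the mouse term (0.0159 and 0.0159). FOS had 661, 715 and 1604 CPM in lung and 115, 137 and 419.8 CPM in tumour (2.22 ± 0.36, 0.00176). EGR1 had 350.1, 472 and 739 CPM in lung and 82.4, 57.8 and 264 CPM in tumour (2.19 ± 0.38, 0.00331). In both, the tumour sample of mouse 3 was the highest of its group and still below every lung sample, and without the mouse term the adjusted p were 0.111 and 0.21. KLF2 (1.84 ± 0.23) and IER2 (2.04 ± 0.27) had smaller errors, while JUND (0.93 ± 0.23) overlapped between the groups, with 727, 415 and 635 CPM in lung and 357, 155 and 499 CPM in tumour.

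Promoters of this list are shown because 13 of its members rose and because immediate early promoters are known for binding sites of CREB and of serum response factor. The sequences are the 200 bases before the transcription start of the 4 members DUSP1 (chr5:172771196-172771395, minus strand), EGR1 (chr5:138465279-138465478, plus), FOS (chr14:75278628-75278827, plus) and JUNB (chr19:12791286-12791485, plus), from RefSeq on GRCh38.p14, written 5′ to 3′ along the gene. Capitals mark the core TGACG of the cAMP response element, on either strand, and the CArG box.
DUSP1: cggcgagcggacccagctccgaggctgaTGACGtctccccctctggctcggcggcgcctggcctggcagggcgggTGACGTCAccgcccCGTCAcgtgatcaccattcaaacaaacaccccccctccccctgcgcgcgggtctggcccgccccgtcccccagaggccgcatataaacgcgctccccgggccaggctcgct
EGR1: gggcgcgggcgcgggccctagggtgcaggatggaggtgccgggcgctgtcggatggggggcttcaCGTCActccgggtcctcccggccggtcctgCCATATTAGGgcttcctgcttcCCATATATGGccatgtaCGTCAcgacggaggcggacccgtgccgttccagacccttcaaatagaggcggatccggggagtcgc
FOS: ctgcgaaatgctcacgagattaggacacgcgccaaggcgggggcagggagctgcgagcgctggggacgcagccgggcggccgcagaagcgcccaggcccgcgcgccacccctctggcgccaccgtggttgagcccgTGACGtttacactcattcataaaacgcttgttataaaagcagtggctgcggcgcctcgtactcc
JUNB: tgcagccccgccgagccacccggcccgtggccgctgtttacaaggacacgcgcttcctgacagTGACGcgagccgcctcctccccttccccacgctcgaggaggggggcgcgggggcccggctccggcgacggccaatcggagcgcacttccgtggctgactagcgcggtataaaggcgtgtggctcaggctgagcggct
In DUSP1 one of the marked stretches is the full element TGACGTCA, in which 2 cores overlap, and in EGR1 2 marked stretches are CArG boxes. In windows of 250 bases before to 50 after the start, 8 of 11 genes that rose and had a window held the core (72.7%), against 9 of 13 members of the list that were not called (69.2%) and 28.4% of 27305 genes with a window. The full element was in 2 of the 11 (18.2%), 1 of the 13 (7.69%) and 2.25% of all genes. A CArG box was in 1 of the 11 (9.09%), 2 of the 13 (15.4%) and 1.6% of all. The motif shares thus did not separate the members that rose from those that did not pass, and a match of letters is no measurement of binding.

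Of the glucocorticoid receptor targets 7 of 16 rose and 0 fell, with a median of 0.87, and 2 of the 7, DUSP1 and CEBPD, stand in lists already described. RASD1, a small GTPase, had 109, 299 and 299 CPM in lung and 21.2, 20.6 and 68.4 CPM in tumour (2.85 ± 0.44, 0.00105), the tumour of mouse 3 again being the highest of its group. FKBP5, a chaperone of the receptor, had 140.4, 166 and 119 CPM in lung and 87, 70.5 and 50.5 CPM in tumour (1.06 ± 0.19, 0.00331). The groups did not overlap in either gene. DDIT4, an inhibitor of mTORC1, rose by 1.90 ± 0.42, PDK4, an inhibitor of pyruvate dehydrogenase, by 1.27 ± 0.24 and KLF9, a transcription factor, by 0.96 ± 0.20 (adjusted p = 0.0175, 0.00675 and 0.0112). With length offsets 6 rose and without the mouse term 2, DUSP1 and RASD1. The count was 3 without mouse 1, 4 without mouse 2 and 4 without mouse 3, and 4 to 7 without any one sample.

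Feedback inhibitors of ERK signalling gave 2 rises in 18 members and a median of 0.30. SPRY1, a Sprouty protein that restrains receptor tyrosine kinases, had 45.4, 72.1 and 65.6 CPM in lung and 14.5, 16.4 and 16 CPM in tumour, and its call held without the mouse term (1.97 ± 0.23; adjusted p = 0.000109 and 0.00122). DUSP5, a nuclear ERK phosphatase, had 732, 546 and 621 CPM in lung and 241, 134 and 269.9 CPM in tumour (1.58 ± 0.25, 0.00134). Of 5 alpha-arrestins, 2 rose: ARRDC3, an adaptor that targets membrane proteins for ubiquitination, had 261, 259 and 292 CPM in lung and 78.7, 81.6 and 72 CPM in tumour (1.81 ± 0.23, 0.000271), and ARRDC1 rose by 0.67 ± 0.17 (0.0374) with overlapping groups.

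TFF2, a trefoil peptide of mucosal surfaces, had 18.5, 25.3 and 24.8 CPM in lung and 2.29, 2.68 and 3.23 CPM in tumour (3.10 ± 0.60, 0.00726). Its neighbours on chromosome 21, TFF1 and TFF3 (GRCh38 chr21:42362282-42366594 and chr21:42311667-42315651, with TFF2 between them at chr21:42346357-42351128), rose by 2.35 ± 0.62 and 2.48 ± 0.46 (adjusted p = 0.0429 and 0.00601); TFF1, TFF3 and MUC5AC were named after their values were seen. TFF3 had 37.8, 55.5 and 69.6 CPM in lung and 6.63, 9.43 and 13.8 CPM in tumour, and the lowest lung value of TFF1, TFF2 and TFF3 was 2.29, 5.75 and 2.73 times the highest tumour value. Without the mouse term the adjusted p of TFF1, TFF2 and TFF3 were 0.293, 0.0748 and 0.111. MUC16, a membrane mucin, had 5.0, 11.3 and 11.5 CPM in lung and 0, 2.68 and 1.5 CPM in tumour (3.20 ± 0.72, 0.019), and MUC5AC, a secreted mucin, rose by 2.25 ± 0.41 (0.00461). ELF3, an epithelial transcription factor, had 20.5, 30 and 50.5 CPM in lung and 2.72, 6.5 and 5.74 CPM in tumour (2.72 ± 0.43, 0.00138). Without the mouse term the adjusted p of MUC16, MUC5AC and ELF3 were 0.416, 0.336 and 0.0577. MUC16 was called in 3 of 9 refits that left out a sample or a mouse. The list of epithelial and mesenchymal state genes had 0 of 23 members higher and 0 lower, with a median of 0.20. With 1.23% of all genes called higher and 1.83% lower, a list of 23 would hold few calls at those shares.

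RGS1, which speeds the shut-off of G protein signals, had 22.6, 125 and 139.6 CPM in lung and 0, 8.73 and 3.52 CPM in tumour, with a log2 fold change of 4.57 ± 0.87 (0.00604). TNFSF4, the ligand OX40L, had 4.76, 11 and 12.8 CPM in lung and 0.991, 1.15 and 1.96 CPM in tumour (2.72 ± 0.47, 0.00331), and SLC47A1, an exporter of organic cations, had 16, 37.4 and 71.1 CPM in lung and 4.15, 7.77 and 8.02 CPM in tumour (2.55 ± 0.40, 0.00144). In all 3 the lung sample of mouse 1 was the lowest lung sample. MIR23AHG, a long non-coding host transcript of microRNAs, had 102, 297 and 336 CPM in lung and 10.8, 57.4 and 53.1 CPM in tumour (2.71 ± 0.28, 4.22e-05); the library kit keeps no strand, so reads of overlapping genes cannot be told apart. CTSE, an aspartic protease, and ALDH3A1, an aldehyde dehydrogenase, stayed below 10 CPM in every sample (3.19 ± 0.68 and 3.14 ± 0.73; 0.0137 and 0.0222). They were called in 3 and 4 of the 9 refits. SLC6A20, a proline transporter, had 10.8, 5.35 and 0.491 CPM in lung and 0, 0.382 and 0.276 CPM in tumour, so its change was carried by mice 1 and 2, and it passed in 1 of 9 refits that left out a sample or a mouse (adjusted p = 0.0493 with all samples). Across these refits, 8 of the 15 named rises, ID1, SOCS3, ZFP36, RASD1, DUSP1, RGS1, ELF3 and MIR23AHG, were called every time.

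**Figure D2:**
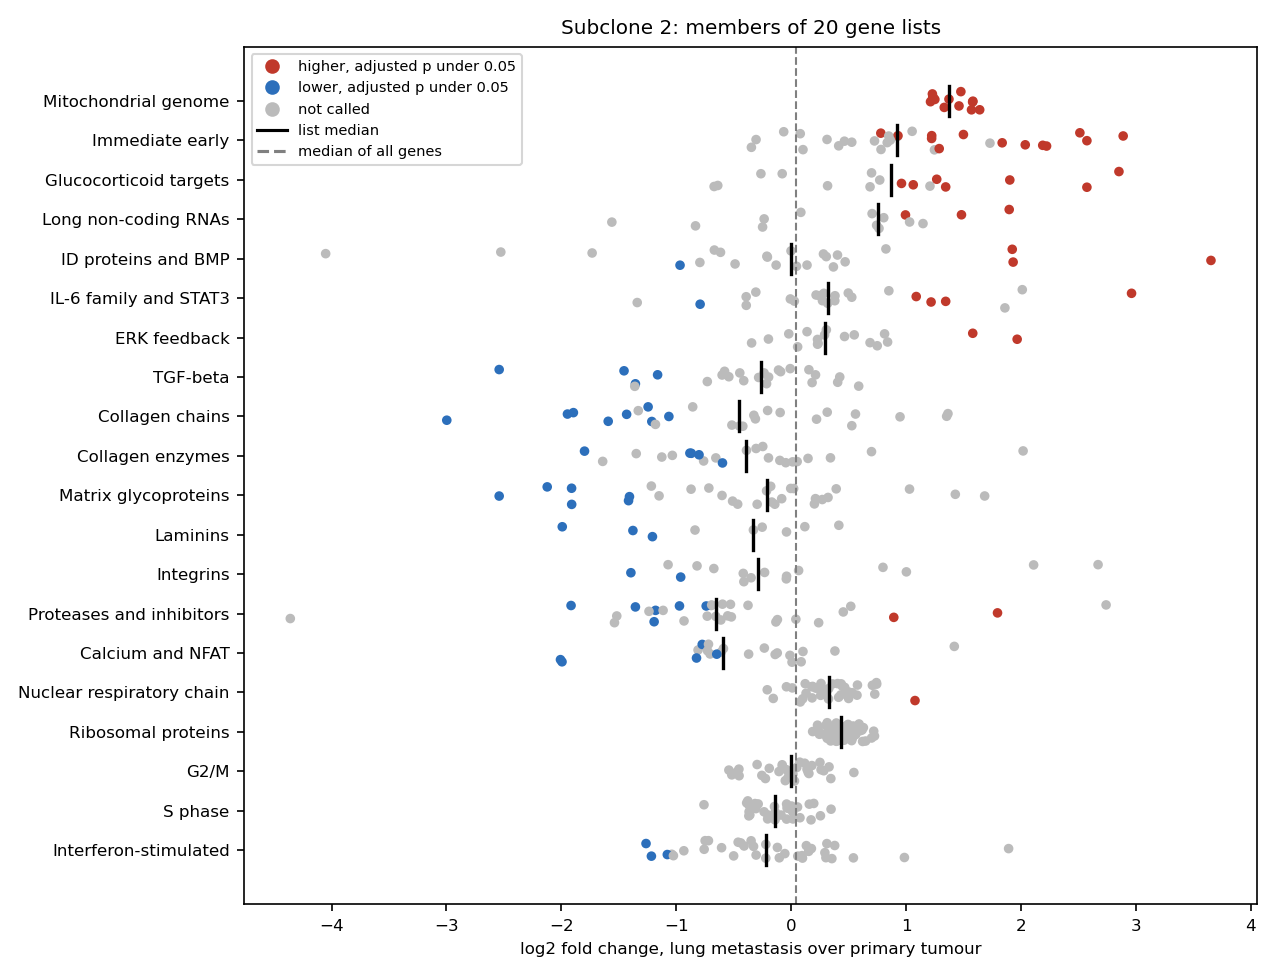
Log2 fold changes, lung metastasis over primary tumour, of the tested members of 20 gene lists; each point is a gene, red where called higher, blue where called lower and grey where not called, with the list median as a black bar and the median of all genes (0.05) as a dashed line. The immediate early and mitochondrially encoded lists lie to the right, and the called members of the matrix lists lie to the left.

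Every protein-coding gene of the mitochondrial genome rose. The 13 of 13 genes, subunits of complexes I, III, IV and V of the respiratory chain, had a median log2 fold change of 1.37, with fold changes between 1.21 ± 0.32 (MT-ATP8) and 1.64 ± 0.22 (MT-ND4). MT-ND4, a subunit of complex I, had 12818, 9721 and 10192 CPM in lung and 3594, 4313 and 2586 CPM in tumour. MT-CO1, a catalytic subunit of complex IV, had 25366, 25939 and 26359.6 CPM in lung and 7720.3, 10243 and 12061 CPM in tumour. The groups were separate in both genes (adjusted p = 0.000287 and 0.00331). With length offsets 9 of the 13 were called and without the mouse term 8; the count was 8 without mouse 1, 10 without mouse 2 and 8 without mouse 3, and 10 to 12 without any one sample. Reads of mitochondrial genes can also come from near-identical nuclear copies, so the split among them is uncertain.

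Together these 13 genes took 8.53, 8.90 and 8.43% of all counts in the lung samples of mice 1, 2 and 3, against 2.84, 3.95 and 3.10% in the tumour samples. The share averaged 8.62 ± 0.246% in lung and 3.30 ± 0.580% in tumour (SD, n = 3 each), a paired difference of 5.32 ± 0.370 points that was positive in 3 of 3 mice. The exact two-sided sign-flip permutation test gave p = 0.25, the smallest p that 3 pairs allow. Among protein-coding counts alone the difference was 5.55 points. No member of the list of genes for mitochondrial transcription, RNA turnover and replication was called in edgeR (0 higher and 0 lower of 26, median 0.00). Over all genes 1.23% were higher and 1.83% lower, so at those shares this list and the next would each hold few calls. Of 38 nuclear-encoded respiratory chain subunits, 1 rose, ATP5PO (1.08 ± 0.29, 0.0478), and the median was 0.33. With length offsets 0 rose and the median was 0.25, and without the mouse term 0 rose. The count was 1 without the tumour sample of mouse 3 and 0 without any other sample or any one mouse. In bulk samples a larger share of mitochondrial RNA and a smaller amount of other RNA per cell cannot be told apart, nor can fewer cells of a type and less RNA per cell.

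**Figure D3:**
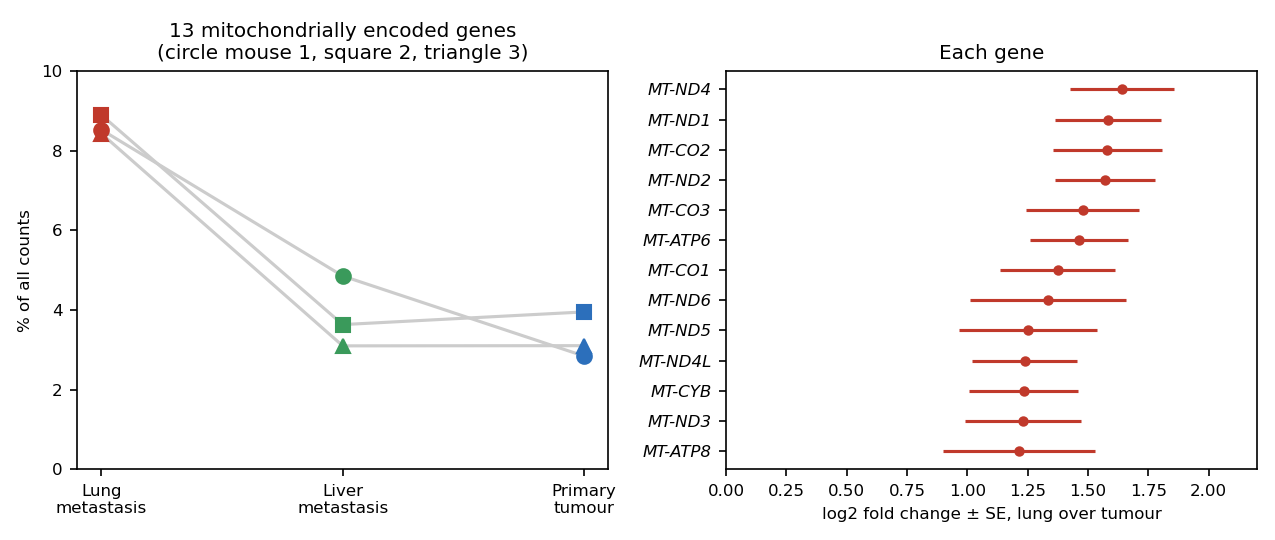
Left, the percentage of all counts taken by the 13 mitochondrially encoded protein genes in each subclone 2 lung, liver and tumour sample, with lines joining samples of the same mouse; the lung samples lie between 8.43 and 8.90%, and the tumour samples between 2.84 and 3.95%. Right, the log2 fold change of each gene, lung over tumour, with its SE.

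Genes of the extracellular matrix made up the clearest set of decreases. Of 25 collagen chains, 8 fell, 0 rose and 17 did not pass, with a list median of -0.45. COL1A2 (ENSG00000164692, chr7:94394561-94431232), a chain of fibrillar type I collagen, had 14.3, 11.9 and 16.1 CPM in lung and 104, 94.5 and 138 CPM in tumour. The lowest tumour value was 5.86 times the highest lung value, and the log2 fold change was -3.00 ± 0.40 (adjusted p = 0.000287, and 0.00294 without the mouse term). COL6A3, a chain of microfibrillar type VI collagen, had 84.3, 72.9 and 142 CPM in lung and 308, 328 and 511 CPM in tumour (-1.95 ± 0.27, 0.000382). COL4A1, of basement membrane type IV collagen, had 49, 58.6 and 51 CPM in lung and 163, 159 and 262 CPM in tumour (-1.90 ± 0.28, 0.000765). The basement membrane, fibrillar and microfibrillar classes thus each held a member that fell.

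COL12A1, which associates with fibrils, changed by -1.59 ± 0.25, COL8A1, a network-forming chain, by -1.24 ± 0.23, and COL5A1, of fibrillar type V collagen, by -1.21 ± 0.23, where a negative log2 value means lower in lung. COL4A2 (-1.43 ± 0.30) and COL7A1, of anchoring fibrils (-1.06 ± 0.23), lost their calls with length offsets (adjusted p = 0.109 and 0.117). With those offsets 6 chains fell, and without the mouse term 5. The count was 7 without mouse 1, 8 without mouse 2 and 3 without mouse 3, and 6 to 8 without any one sample. The list medians in mice 1, 2 and 3 were -0.17, -0.33 and -1.05, the decrease being largest in mouse 3. Some fibroblast markers were low in both groups and others were not. The marker CPM values in this paragraph are scaled by total counts, without TMM. DCN reached 0.413 CPM at most in lung and 0.0729 in tumour, and PDGFRA reached 0.432 in lung and was at 0 in all 3 tumour samples. THY1 reached 0.0786 in lung and was at 0 in tumour, and COL3A1 was between 0.678 and 2.52 in lung and between 0.471 and 0.729 in tumour. The 10 fibroblast and pericyte markers summed to 12.1 to 25.2 CPM in lung and 34.1 to 42.9 CPM in tumour. Of these, PDGFRB gave 4.91, 10.1 and 17.1 CPM in lung and 25.9, 27.0 and 26.4 CPM in tumour. Of the 6 markers tested 2 fell, among them FAP (-4.61 ± 1.07), the largest of the named decreases. Their part in the collagen result was not tested.

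Of 23 enzymes that build and crosslink collagen 5 fell, with a median of -0.39. LOX, which crosslinks collagen and elastin, had 32.2, 27.9 and 51.3 CPM in lung and 124, 102 and 158 CPM in tumour (-1.80 ± 0.23, 0.000244). P4HA1 and P4HA2, subunits of prolyl 4-hydroxylase, PLOD1, a lysyl hydroxylase, and SERPINH1, the collagen chaperone, fell by less (log2 fold changes between -0.60 ± 0.15 for SERPINH1 and -0.88 ± 0.23 for PLOD1). With length offsets 2 fell, LOX and P4HA1, and without the mouse term 1, LOX. The count was 3 without mouse 1, 1 without mouse 2 and 1 without mouse 3, 1 without the tumour sample of mouse 3, 2 without the lung or the tumour sample of mouse 2, and 3 or 4 without any other sample.

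Among matrix glycoproteins and proteoglycans 6 of 29 fell and 0 rose, with a median of -0.21. FN1 (ENSG00000115414, chr2:215360440-215436172), which encodes fibronectin and was among the most abundant transcripts of these cells, had 846, 1889.7 and 2448 CPM in lung and 5878, 6699.8 and 8770.5 CPM in tumour. The groups were separate and the lung sample of mouse 1 was the lowest; the log2 fold change was -2.12 ± 0.41, with an adjusted p of 0.00726, 0.1 without the mouse term and 0.0777 without mouse 1. TNC, an anti-adhesive glycoprotein, had 152, 136 and 125 CPM in lung and 520.2, 438 and 603 CPM in tumour (-1.91 ± 0.18, 7.81e-06), with the smallest SE of the group. TGFBI, which links collagen to integrins, had 74.4, 73.7 and 113 CPM in lung and 377, 454 and 676 CPM in tumour (-2.54 ± 0.33, 0.000271). Both kept their calls without the mouse term and with length offsets. FBN1, of elastic microfibrils, CCDC80 and THBS1, an inhibitor of vessel growth, changed by -1.41 ± 0.32, -1.91 ± 0.25 and -1.42 ± 0.37 (adjusted p = 0.0182, 0.000271 and 0.043). The count was 5 without mouse 1, 4 without mouse 2 and 4 without mouse 3, and 3 to 6 without any one sample.

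Laminins, the adhesive proteins of basement membranes, had 3 of 9 chains lower. LAMC1 changed by -1.38 ± 0.19 and LAMB1 by -1.21 ± 0.26 (adjusted p = 0.000325 and 0.0147), and both were still called with length offsets. Of 16 integrin chains 2 fell, ITGA5, the fibronectin receptor chain (-1.39 ± 0.29, 0.0119), and ITGA2, a collagen receptor chain (-0.96 ± 0.21, 0.0173). Neither was called with length offsets (0.0535 and 0.0745), where 1 integrin chain was higher and 0 lower; 0 were called without the mouse term and 0 without mouse 2.

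Matrix proteases and their inhibitors moved both ways, with 2 of 31 higher and 6 lower, a median of -0.65 and 24 negative values. MMP14, a membrane-bound metalloprotease, had 608, 633 and 579.5 CPM in lung and 1276, 1195 and 1719.5 CPM in tumour (-1.18 ± 0.20, 0.00223). PLAU, the urokinase plasminogen activator, changed by -1.19 ± 0.30 (0.0329). The other plasminogen activator, PLAT, rose, with 710.3, 637 and 711 CPM in lung and 376, 332 and 404 CPM in tumour (0.89 ± 0.18, 0.00913), so the 2 activators differed in direction. ADAMTS1, which cleaves proteoglycans, rose (1.80 ± 0.45, 0.0333), and ADAM17, ADAM19 and ADAMTS6 fell (-0.74 ± 0.19, -0.97 ± 0.18 and -1.92 ± 0.43). With length offsets the counts were 2 higher and 5 lower, and without the mouse term 0 higher and 1 lower. The lower calls numbered 2 without the lung sample of mouse 2 or 3 or the tumour sample of mouse 3, 3 without the lung sample of mouse 1 or the tumour sample of mouse 2, 2 without mouse 2 and 0 without mouse 3; the higher calls numbered 0 to 2 in these refits.

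TGF-beta is a known inducer of matrix genes, and 4 of the 24 members of its list fell, among them TGFBI, LTBP2, a latent TGF-beta binding protein, and PMEPA1, a feedback inhibitor; 0 rose and the median was -0.26. LTBP2 had 53.6, 89.5 and 115 CPM in lung and 189.7, 218 and 299 CPM in tumour (-1.45 ± 0.24, 0.00223). PMEPA1 had 405, 587 and 632 CPM in lung and 1018, 1059 and 1527 CPM in tumour (-1.16 ± 0.30, 0.0369). The groups did not overlap in either, and with length offsets 3 fell, the call on PMEPA1 being lost (0.0567). The count was 2 without any one lung sample or the tumour sample of mouse 3, and 1 without mouse 3.

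LRP1 is an endocytic receptor for proteases and matrix proteins. It had 35.5, 69.5 and 88.5 CPM in lung and 274, 266 and 384 CPM in tumour (-2.30 ± 0.30, 0.000272). Among 15 genes of the LDL receptor family it was the single one called, against 1.83% lower over all genes. Of the 15, 12 had a negative fold change and the median was -0.39, against 8116 negative of 17418 over all genes. With length offsets LRP1 kept its call (0.000418) and the family median was -0.20. ITPR1, the inositol trisphosphate-gated calcium channel of the endoplasmic reticulum, had 4.92, 7.31 and 8.52 CPM in lung and 26.9, 24.3 and 30.7 CPM in tumour (-1.99 ± 0.24, 0.000207). NFATC2, a calcium-regulated transcription factor, had 62.2, 54.1 and 62.1 CPM in lung and 204, 125 and 434 CPM in tumour (-2.01 ± 0.38, 0.00601). In NFATC2 the tumour of mouse 3 was the highest, while the lung samples lay close together. Of 21 genes for calcium release, store refilling and calcineurin-NFAT signalling, 5 fell and 0 rose, with a median of -0.59; the others were ITPR3, the pump ATP2A2 and the calcineurin subunit PPP3CA. With length offsets 2 were called, and without the mouse term 2, ITPR1 and NFATC2 in both; without any one sample or mouse the count was 2 or 3.

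L1CAM, a neural adhesion molecule, had 7.9, 15.7 and 12.3 CPM in lung and 42.5, 55.7 and 86.9 CPM in tumour (-2.34 ± 0.40, 0.00302), and TENM3, a teneurin adhesion protein, had 11, 14.6 and 25.5 CPM in lung and 69.6, 56.6 and 80 CPM in tumour (-2.04 ± 0.27, 0.000299). EDNRA, the endothelin A receptor, had 2.82, 4.61 and 5.32 CPM in lung and 20.2, 14.4 and 17.1 CPM in tumour (-2.02 ± 0.30, 0.000891). All 3 kept their calls without the mouse term. PDE2A, a cyclic nucleotide phosphodiesterase, had 13.5, 2.54 and 4.01 CPM in lung and 48.4, 16.8 and 25.1 CPM in tumour (-2.32 ± 0.37, 0.00165), with mouse 1 highest in both groups. TRIML2, a TRIM-like protein, had 0.484, 2.85 and 5.65 CPM in lung and 16, 43.8 and 39.8 CPM in tumour (-3.67 ± 0.47, 0.000271), with mouse 1 lowest in both. These 2 lost their calls without the mouse term (0.131 and 0.0748). FAP, a surface protease from the list of fibroblast and pericyte markers, had 0.403, 0.578 and 0 CPM in lung and 4.71, 9.05 and 7.93 CPM in tumour (-4.61 ± 1.07, 0.0224). IGFBP5, an IGF-binding protein, GLIS3, a transcription factor, and MYH16, a myosin heavy chain locus annotated as a transcribed unitary pseudogene, changed by -2.68 ± 0.68, -2.33 ± 0.52 and -2.05 ± 0.47 (0.0365, 0.0175 and 0.0197). FAP, IGFBP5, GLIS3 and MYH16 were called in 2, 2, 4 and 4 of the 9 refits without 1 sample or mouse, and 8 of the 15 named decreases, among them COL1A2, TGFBI, LRP1 and ITPR1, in all 9.

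Several programmes gave few or no calls in edgeR, each read against 1.23% higher and 1.83% lower over all genes. Of 30 genes of G2/M and mitosis 0 were higher and 0 lower, with a median of 0.00, and of 31 S phase genes 0 and 0, with a median of -0.14. All 53 of 53 cytosolic ribosomal protein genes had a positive fold change, with a median of 0.43, but 0 were called. With length offsets their median was 0.38 and 0 were called. The unfolded protein response (22 tested), ATF4 targets (27), NRF2 targets (25) and MHC class I genes (16) had 0 calls, with medians of -0.40, -0.06, -0.10 and 0.08. Over all genes, 3005 had an unadjusted p under 0.05. Of 36 interferon-stimulated genes 3 fell, IFIT2, IFIT3 and HERC5 (-1.08 ± 0.28, -1.22 ± 0.25 and -1.26 ± 0.28), and 0 were called without the mouse term. An absence of calls in these lists does not show that the samples were alike.

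Longer genes were lower in lung and shorter genes higher. Across 8 equal bins of exonic length, the median log2 fold change was 0.40 in the shortest genes (53 to 1280 bases) and -0.22 in the longest (9149 to 205012 bases). The shortest bin held 29 higher and 5 lower calls and the longest 17 and 135. The median exonic length was 3373 bases for the genes called higher and 8306 for those called lower, against 4244 for all. The slope was weakest in mouse 3, where the medians of the shortest and longest bins were 0.19 and -0.08, against 0.33 and -0.39 in mouse 1 and 0.30 and -0.25 in mouse 2. Of the calls, 186 lower and 59 higher were lost with length offsets. Collagens, laminins and fibronectin have long transcripts and mitochondrial genes short ones, which is why counts with length offsets stand beside those lists. COL1A2, with 11156 exonic bases, changed by -2.73 with the offsets and FN1, with 17315, by -1.84; ID1, with 1233, changed by 3.42.

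**Figure D4:**
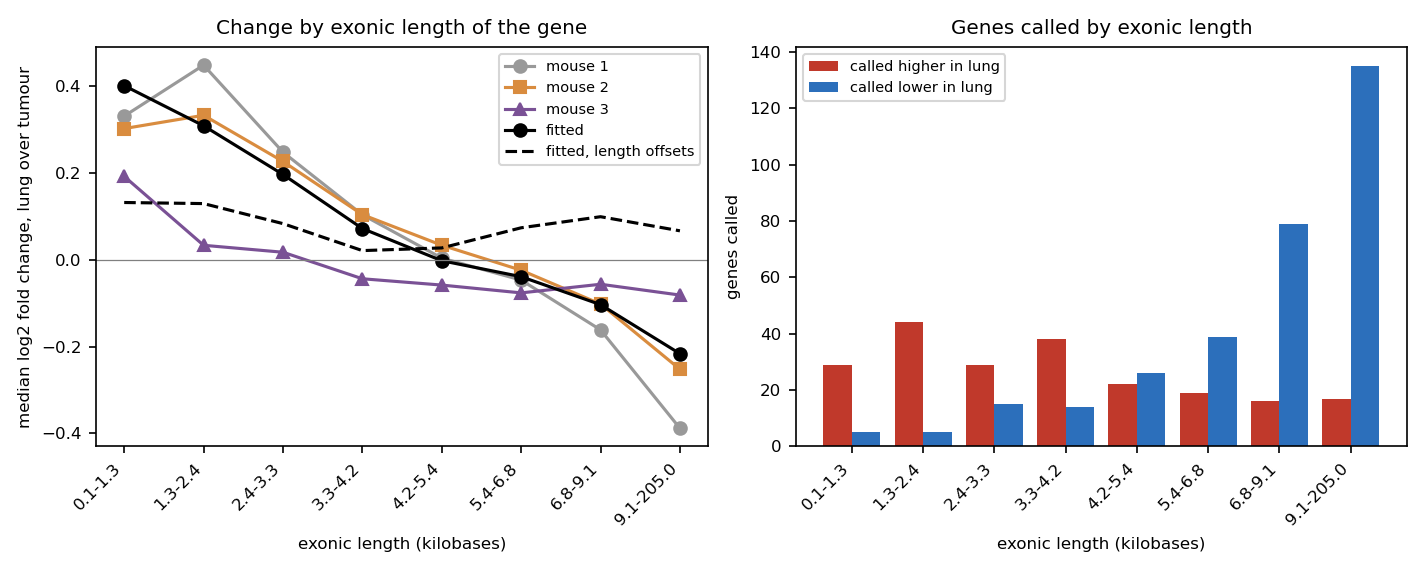
Left, the median log2 fold change, lung over tumour, of genes in 8 bins of exonic length for each mouse, for the fit over all mice and for the fit with length offsets (dashed). Right, the number of genes called higher (red) and lower (blue) per bin: 29 and 5 in the shortest, 17 and 135 in the longest.

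The lung samples were also set against liver metastases of subclone 2 from the same 3 mice, within the fit over all 18 samples; both comparisons share the 3 lung samples. Of 17418 genes 514 passed (2.95%), 284 higher (1.63%) and 230 lower (1.32%) in lung. SLC43A2, an amino acid transporter, had 21.8, 29 and 47 CPM in lung and 2.5, 5.16 and 7.15 CPM in liver (2.71 ± 0.32, adjusted p = 0.000746). IFI27 and IFI6, interferon-induced genes, were higher in lung by 1.75 ± 0.23 and 2.76 ± 0.38, and MUC5AC by 3.19 ± 0.42. Their lung-tumour changes were 1.11 ± 0.30, 0.18 ± 0.23, 0.54 ± 0.35 and 2.25 ± 0.41, of which that of MUC5AC alone passed. PLEKHG4, a guanine nucleotide exchange factor, was higher in lung than in liver by 1.58 ± 0.19, and the mitochondrial tRNA gene MT-TP by 1.69 ± 0.21. Among genes lower in lung than in liver, COL1A2 had 14.3, 11.9 and 16.1 CPM in lung and 56, 159 and 36 CPM in liver (-2.58 ± 0.40, 0.00274), and EDNRA changed by -1.96 ± 0.30, PRKDC, the DNA-dependent protein kinase, by -1.13 ± 0.18, EXTL3, a heparan sulfate glycosyltransferase, by -1.20 ± 0.16, CLMP, an adhesion molecule, by -1.65 ± 0.21 and MECOM, a transcription factor, by -1.36 ± 0.20. ID1 (1.38 ± 0.27, 0.0104) was higher in lung than in liver, whereas SOCS3 (0.56 ± 0.20, 0.132), DUSP1 (0.27 ± 0.27, 0.647), ZFP36 (0.65 ± 0.33, 0.3) and TGFBI (-0.14 ± 0.31, 0.855) did not pass. In the same fit liver also differed from tumour in SOCS3 (2.40 ± 0.21, adjusted p = 1.16e-05), DUSP1 (2.30 ± 0.28, 0.000142) and ZFP36 (2.24 ± 0.34, 0.00125). The same held for TGFBI (-2.40 ± 0.33, 0.000472) and ID1 (2.28 ± 0.28, 0.000142). COL1A2 (-0.42 ± 0.37, 0.704) and EDNRA (-0.06 ± 0.28, 0.955) did not pass between liver and tumour.

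By list, 12 of 13 mitochondrially encoded genes were higher in lung than in liver, with a median of 1.17, and the liver samples held 3.86 ± 0.900% of counts in these genes (SD, n = 3). Of 36 interferon-stimulated genes 10 were higher and 0 lower, and of 31 immediate early genes 2 were higher and 0 lower. Over all genes the shares were 1.63% higher and 1.32% lower. The list of ID proteins and BMP signalling had 8 of 23 higher, and that of the IL-6 family and STAT3 6 of 23, with 0 lower in both. Of 30 genes of G2/M and mitosis 0 were higher and 5 lower. Without the mouse term 4 genes passed between lung and liver, and leaving out samples or mice gave 27 (without mouse 2) to 542 (without mouse 1), with 330, 59 and 318 without the lung sample of mouse 1, 2 or 3 and 83 without mouse 3.

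Subclone 13, the other sorted line, gave a lung-tumour comparison of its own samples under the same mouse numbers, with 503 genes called (2.89%), 133 higher (0.764%) and 370 lower (2.12%). For the 30 genes named in subclone 2, all 30 had a fold change of the same sign in subclone 13 and 23 were called there, 12 of 15 higher and 11 of 15 lower. ID1 changed by 2.95 ± 0.29 in subclone 13 (408, 325 and 478 CPM in lung, 55.5, 64.8 and 33.4 CPM in tumour) and COL1A2 by -2.72 ± 0.39 (26.1, 19.3 and 27 CPM in lung, 176, 141 and 159 CPM in tumour). SLC6A20 and MUC16 were not called there (0.89 ± 1.22 and 0.68 ± 0.84; adjusted p = 0.839 and 0.814), nor were ALDH3A1, FN1, IGFBP5, GLIS3 and PDE2A. The test of the difference between the subclones' changes called 0 genes in edgeR, with a smallest adjusted p of 0.813, 323 genes at an unadjusted p under 0.05 and 1 gene in DESeq2. The smallest adjusted p in edgeR was that of MDK, the growth factor midkine. MDK had 155, 114 and 151 CPM in lung and 114, 86.2 and 130.0 CPM in tumour of subclone 2. In subclone 13 it had 494, 515 and 569 CPM in lung and 117, 139 and 222 CPM in tumour. Its difference of changes was -1.40 ± 0.27 on the log2 scale. Of the 30 named genes TRIML2 had the smallest unadjusted p of that test, 0.0114, with changes of -3.67 ± 0.47 in subclone 2 and -1.95 ± 0.43 in subclone 13. Without the filter on low counts 18 genes were called for this difference. The intervals were wide: for SLC6A20 the difference of changes was 3.11 ± 1.68.

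**Figure D5:**
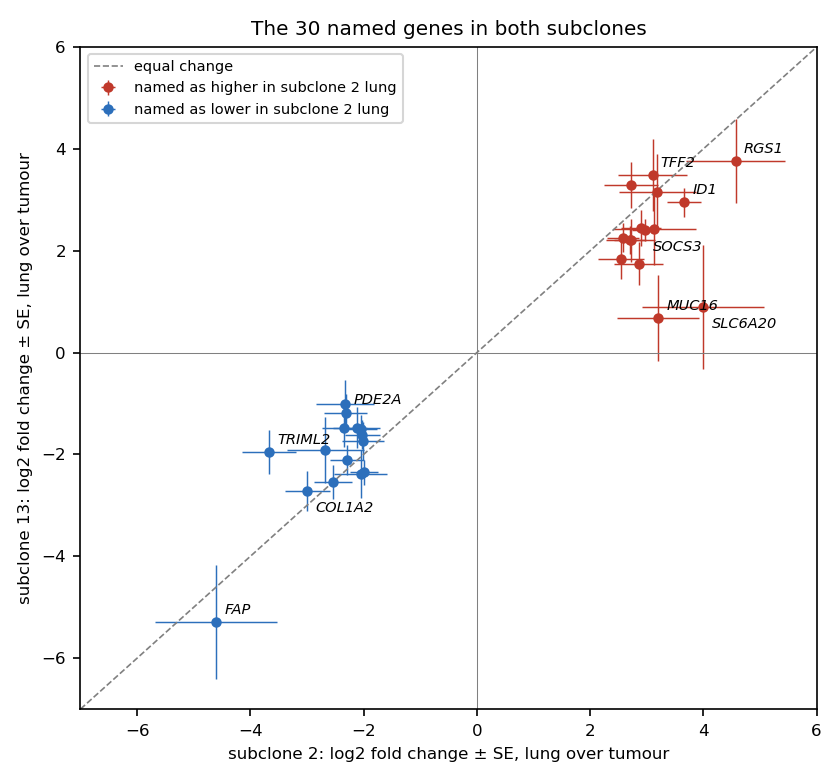
Log2 fold changes of the 30 named genes, lung over tumour, in subclone 2 (horizontal) and subclone 13 (vertical), with SE bars and a dashed line of equal change. All 30 points lie in the quadrants of equal sign, and the x axis values chose the genes.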

How the data were processed

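RNA of sorted cells was measured by sequencing; the members and gene lists were chosen with earlier results of these data known. The deposited values are read counts per gene made by the authors, whole numbers for 38526 genes in 24 libraries; GRCh38, featureCounts, STAR, cutadapt and bcl2fastq 2.15.0.4 are named in the submitters' processing notes, without roles, and whether mouse reads were removed is not given in the sources used here. Libraries were made with a TruSeq v2 kit, per the labels' protocols, which keeps no strand. The retransplantation samples were not analysed here. The 3 libraries of each subclone 13 sample of mouse 1, which came from runs 1, 2 and 3, were summed, giving 18 samples of 11.8 to 82.2 M counts. Genes were filtered by filterByExpr (17418 kept), scaled by TMM and fitted in edgeR 4.0.16 (R 4.3.3) with group and mouse, with 10 residual degrees of freedom and a biological coefficient of variation of 0.33 (0.476 without mouse). The test was the quasi-likelihood F test with Benjamini-Hochberg adjustment and a threshold of 0.05; SE was taken as the absolute fold change (log2) over the root of F. The same mouse gave each lung and tumour pair, per the labels, and deviations from the group means correlated within pairs across genes (0.443, 0.419 and 0.163), although the lung sample of mouse 3 correlated more with the tumour sample of mouse 2 (0.213).

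Symbols came from a list of gene names (29429 of 38526 identifiers), and coordinates, types and exonic lengths from GENCODE v29, which held all 38526. Named genes had a symbol, a call, non-overlapping groups and 5 CPM or more on average in the group with the larger values, the 15 with the largest log2 fold change each way; from 43 pathway and 9 marker lists, called members are named by adjusted p. Alternatives were no mouse term, DESeq2 1.42.0, RLE scaling, no filter, 6 or 9 samples, 1 library in place of 3, offsets from a spline of length (5 degrees of freedom), and leaving out each sample or mouse. The scripts were tested on simulated counts. Some members of the lists are counted but not reported by name here.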

Additional observations from a re-analysis of the deposited data

How the results depend on the processing

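The fits pair lung and tumour by mouse. With no replicate block 76 genes were called between lung and tumour in place of 532, 4 between lung and liver in place of 514, and 4 lists had at least 3 called members in place of 20; 42 of 136 named or listed genes kept their call. DESeq2 called 1215 and 1364 genes, 1 gene for the difference between subclones and 31 lists. Without the filter on low counts the numbers were 882, 966 and 18. The 9 subclone 2 samples alone gave 316 and 261, and length offsets gave 334 between lung and tumour. RLE scaling, the 6 samples alone and the first library in place of the sum gave 544, 610 and 530. Leaving out 1 sample or mouse gave 107 to 336 genes between lung and tumour, 27 to 542 between lung and liver, 0 for the difference between subclones and 8 to 16 lists, and a mitochondrial share difference of 5.14 to 5.51 points. None of the 136 named or listed genes changed sign in these alternatives, but the balance of calls did: with length offsets most were higher (195 against 139 lower) in place of lower, and between lung and liver without the block 1 was higher and 3 lower. The cause of these shifts was not tested. With 3 mice per group and mouse tied to run in subclone 2, smaller changes may not be detectable, and intervals cover these animals only.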

Other observations

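Factors that act on blood vessels moved in both directions in lung metastases. Of 23 angiogenic and lymphangiogenic factors and receptors, 2 rose and 4 fell, with a median of -0.33. ANGPTL4, an inhibitor of lipoprotein lipase that also affects vessel permeability, had 402, 479 and 573 CPM in lung and 129, 150.2 and 342 CPM in tumour (log2 fold change 1.33 ± 0.23, edgeR adjusted p = 0.00331). VEGFC, the lymphatic growth factor, had 82.9, 69.7 and 50.4 CPM in lung and 149, 121 and 149.8 CPM in tumour (-1.04 ± 0.19, 0.00461), and the groups did not overlap in either gene. EDN2, an endothelin, had 22.8, 16.9 and 3.68 CPM in lung and 2.11, 1.85 and 3.78 CPM in tumour and rose by 2.32 ± 0.58 (0.0337), with mouse 3 showing no rise. NRP2, a co-receptor for VEGFC, changed by -1.07 ± 0.19 (0.00331). Of 20 genes reported for lung metastasis of MDA-MB-231 in earlier work, 2 rose, ID1 and ANGPTL4, and 1 fell, TNC.

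Of 18 Notch pathway genes 3 fell, 1 rose and 14 were not called, with a median of 0.12: the receptor NOTCH2, the ligand JAG1 and the co-activator MAML1 fell (-1.11 ± 0.21, -0.73 ± 0.17 and -0.57 ± 0.15; adjusted p = 0.00713, 0.0244 and 0.0474), while the target HES1 rose (1.17 ± 0.29, 0.0313) with overlapping groups. None of these 4 was called with length offsets. Of 33 hypoxia and glycolysis genes, ANGPTL4 and ANKRD37 rose and NDRG1, P4HA1 and LOX fell, with a median of -0.27. Among long non-coding RNAs, MALAT1 had 305, 1014 and 1105 CPM in lung and 105, 538 and 283 CPM in tumour (1.48 ± 0.30, 0.0106) and NEAT1 had 486, 1864 and 939.6 CPM in lung and 62.6, 836 and 313 CPM in tumour (1.90 ± 0.36, 0.00604). In both, mouse 1 was lowest in each group and the groups overlapped, and without the mouse term the adjusted p were 0.64 and 0.715. PTGER2, a prostaglandin E2 receptor, was scarce, with 0.242, 0.298 and 0.246 CPM in lung and 1.8, 1.91 and 2.76 CPM in tumour (-3.01 ± 0.56, 0.0056), and in subclone 13 it had 1.97, 2.45 and 2.3 CPM in lung and 3.17, 2.51 and 2.67 CPM in tumour. The difference between those changes was -2.67 ± 0.73 with an unadjusted p of 0.00159 and an adjusted p of 1.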
